A study of Mus musculus with 12 samples.

Results

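Motile cilium genes were followed in 12 RNA-seq libraries of mouse dorsal hippocampus at postnatal day 7. The set was defined by name: every protein-coding gene whose symbol starts with Cfap, Dnah, Dnaaf, Dnai, Rsph, Drc or Tekt, together with Foxj1, Ccdc39 and Ccdc40. It holds 71 of the 52634 genes counted, of which 31 are Cfap, 15 Dnah, 8 Rsph, 5 Tekt, 4 Dnaaf, 3 Drc and 2 Dnai genes, the Dnai genes being listed under their older symbols Dnaic1 and Dnaic2. A total of 68 of the 71 passed the low-count filter, and Cfap97d1, Rsph6a and Tekt3 did not.

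Each library was made from hippocampi pooled from 4 mice, and every group had 3 libraries. The groups were SERTPyramid libraries labelled female, control libraries labelled female, SERTPyramid libraries labelled male and control libraries labelled male. SERTPyramid mice lack the serotonin transporter gene Slc6a4 in pyramidal neurons, and the controls are SERTfl/fl, carrying loxP-flanked Slc6a4. The sources used here give neither the driver of the deletion nor whether pools came from separate litters, so p-values measure only the spread between these libraries. Pyramidal neurons carry an immotile primary cilium and no motile cilia.

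Motile cilia beat by means of dynein arms, which slide the microtubule doublets of the axoneme against each other, while radial spokes, the nexin-dynein regulatory complex and the central pair of microtubules control the stroke. In the brain they stand in tufts on the ependymal cells that line the ventricles and move cerebrospinal fluid, and epithelial cells of the choroid plexus also bear cilia and express Foxj1. Foxj1 is the forkhead transcription factor that switches on motile ciliogenesis, and in mice ependymal cells mature during the first weeks after birth. Counts come from whole tissue, so fewer cells of a type and less RNA per cell cannot be told apart.

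Library totals ran from 18747249 to 25522347 counts. Slc6a4 had 12, 3 and 1 counts in SERTPyramid and 5, 16 and 9 in control libraries labelled female, and 8, 3 and 7 counts in SERTPyramid and 0, 17 and 12 in control libraries labelled male, so the groups overlapped; a count of 0 leaves room for 3 counts, here 0.160 CPM, by counting error alone. Counts of Xist and of Y-linked genes contradicted the label for sex in 10 of 12 libraries and matched it in control replicate 1 of both labelled sexes. Sex is therefore given as the label, no library was moved, and each comparison was also made without those control replicates. SERTPyramid replicate 3 labelled female and SERTPyramid replicate 1 labelled male stood apart in transcripts of the choroid plexus: 15 marker genes summed to 78.6 and 2810.1 CPM (counts scaled to the same library total) there, against 563.2 to 2051.3 CPM in the other 10 libraries.

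Transcripts of the motile cilium were detected in every library. None of the 71 genes was at 0 counts in all 12 libraries, and both defining markers were above the level of 3 counts, 0.118 to 0.160 CPM, in each of them. Among 12 further ependymal markers all passed the filter, led by Sox9, a glial transcription factor, with a mean of 16.5 CPM per kilobase of exon, S100b with 8.24 and Tmem212 with 3.19 CPM per kilobase. Per kilobase of exon, Cfap36 had the highest level of the set, a mean of 21.4 CPM per kb over the 12 libraries, followed by Cfap298 with 13.7, Rsph9 with 11.0 and Foxj1 with 9.94 CPM per kb. The dynein heavy chains were lower, from 0.0688 CPM per kb for Dnah14 to 1.59 CPM per kb for Dnah9. The plot of levels by family shows that Cfap, Dnah and Rsph genes each spread over more than an order of magnitude.

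**Figure D1:**
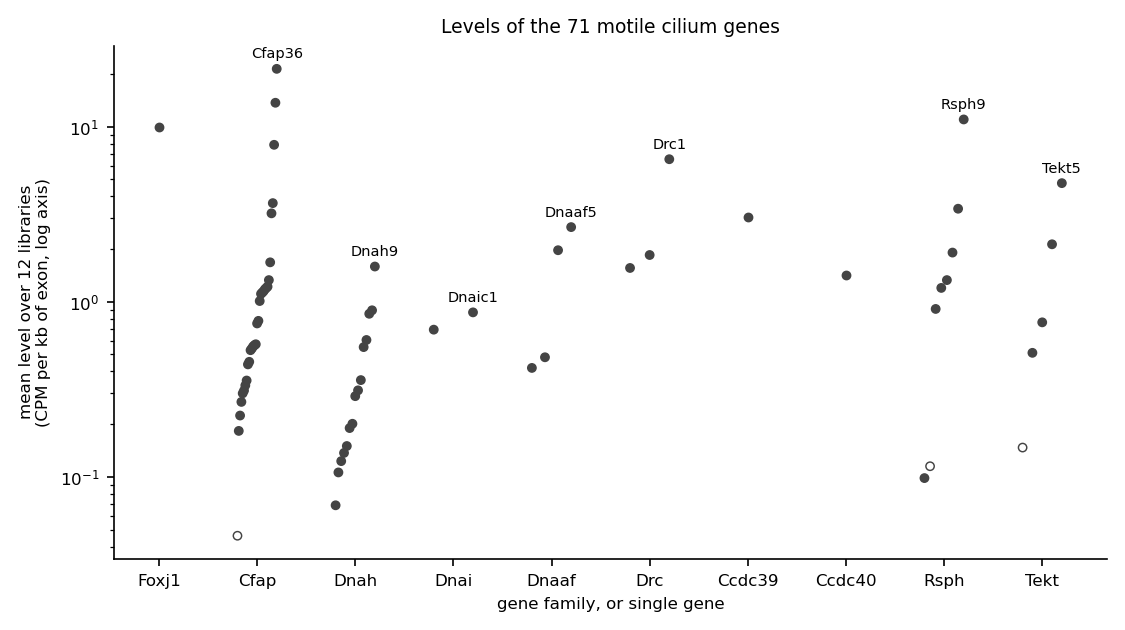
Mean level of each of the 71 genes over 12 libraries, in CPM per kilobase of exon on a log axis, by gene family; each point is 1 gene, the highest gene of a family is named, and open points are the 3 genes below the low-count filter. Cfap36 was highest with 21.4 CPM per kb, and the highest dynein heavy chain, Dnah9, had 1.59 CPM per kb.

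Foxj1 (ENSMUSG00000034227, GRCm38 chr11:116330704-116335399, minus strand) had 28.0, 29.1 and 14.8 CPM in SERTPyramid libraries labelled female, against 22.6, 21.2 and 18.1 CPM in their controls. In libraries labelled male it had 34.6, 28.3 and 24.4 CPM in SERTPyramid and 34.7, 24.5 and 32.5 CPM in controls. The genotypes overlapped in both labelled sexes, and SERTPyramid replicate 3 labelled female was the lowest of all 12 libraries. The difference of 3.33 CPM among labelled females (SERTPyramid minus control) had an exact 2-sided permutation p of 0.5, and the difference of -1.51 CPM among labelled males a p of 0.7, 0.1 being the smallest p that 3 libraries a side allow. Over both labelled sexes, permuted within each, the difference was 0.913 CPM and the exact p 0.785, of at least 0.005 possible.

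The radial spokes project from the doublets towards the central pair and pass on its signals. Rsph1 (ENSMUSG00000024033, GRCm38 chr17:31255019-31277383, minus strand), a protein of the spoke head, had 4.77, 4.65 and 3.00 CPM in SERTPyramid libraries labelled female and 3.47, 3.66 and 2.89 CPM in their controls. Among labelled males it had 6.79, 5.42 and 4.18 CPM in SERTPyramid and 6.99, 4.78 and 5.43 CPM in control libraries. Its order over libraries was close to that of Foxj1, with r = 0.94 on log2 CPM over the 12 libraries, which share the scaling by library size. Rsph4a, another spoke-head protein, ranged more widely, with 7.02, 7.36 and 2.33 CPM in SERTPyramid and 5.95, 5.91 and 5.04 CPM in control libraries labelled female, and 10.3, 6.58 and 7.37 CPM in SERTPyramid and 8.16, 7.05 and 10.7 CPM in control libraries labelled male. Rsph9, a spoke-head protein as well, kept to a narrow range, with 16.8, 17.7 and 17.7 CPM in SERTPyramid and 15.5, 19.1 and 16.5 CPM in control libraries labelled female, and 17.1, 16.4 and 19.8 CPM in SERTPyramid and 19.8, 17.5 and 16.7 CPM in control libraries labelled male. Rsph9 did not follow Foxj1 (r = 0.03), whereas Rsph4a did (r = 0.91).

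Ccdc39 and Ccdc40 form a filament along the doublets that sets the spacing of spokes and inner dynein arms, and loss of either disorders the axoneme. The partners behaved differently across these libraries. Ccdc40 (GRCm38 chr11:119228572-119265238, plus strand) had 9.35, 9.11 and 6.98 CPM in SERTPyramid and 7.38, 6.55 and 6.58 CPM in control libraries labelled female, and 10.3, 9.63 and 9.74 CPM in SERTPyramid and 10.1, 7.84 and 9.70 CPM in control libraries labelled male. Ccdc39 (GRCm38 chr3:33812362-33844310, minus strand) had 24.2, 27.3 and 24.3 CPM in SERTPyramid and 22.1, 22 and 23.1 CPM in control libraries labelled female, and 26.8, 16.8 and 24.8 CPM in SERTPyramid and 20.5, 22.8 and 18.5 CPM in control libraries labelled male. Ccdc40 followed Foxj1 with r = 0.87, and Ccdc39 had r = -0.23. The exons of Ccdc39 share 16.9% of their bases with Ttc14 on the other strand, which had 27050 counts in all against 6320 for Ccdc39; the library kit does not mark strand, so reads from the shared stretch cannot be told apart. Over the 12 libraries Ccdc39 had r = 0.93 with Ttc14, and among the other motile cilium genes its highest r were 0.81 with Cfap100 and 0.76 with Rsph10b. Golga1 and Nvl, which share no exon bases with Ccdc39, also had r = 0.93 with it, and their r with Ttc14 was not computed. Of all genes tested, 4.65% had r of at least 0.7 with Ccdc39. Whether shared reads shaped its values was not tested.

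Dynein heavy chains are the motors of the arms. Dnah9, an outer-arm motor, had 27.5, 24.8 and 21.6 CPM in SERTPyramid and 25.9, 24.3 and 21.9 CPM in control libraries labelled female, and 35.4, 21.1 and 23.5 CPM in SERTPyramid and 28.3, 23.3 and 27.3 CPM in control libraries labelled male. Dnah2, an inner-arm motor, had 15.8, 15.2 and 12.3 CPM in SERTPyramid and 11.3, 13.4 and 12.5 CPM in control libraries labelled female, and 16.9, 11.3 and 12.2 CPM in SERTPyramid and 14.4, 12.3 and 12.8 CPM in control libraries labelled male. Both were highest in SERTPyramid replicate 1 labelled male, and their genotypes overlapped in both labelled sexes. Of the 15 heavy chains, 9 had r of at least 0.5 with Foxj1, with a family median of 0.69. Dnah6 was highest at 0.95 and Dnah10 had 0.93, whereas Dnah8 and Dnah17, known as dyneins of the sperm tail, had 0.04 and 0.09. Counts of Dnah7a, Dnah7b and Dnah7c, near-identical genes on chromosome 1, are uncertain, because reads that fit several of them could be split in ways the sources used here do not give.

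The intermediate chains Dnaic1 and Dnaic2 hold the outer arm together. Dnaic1 had 2.41, 2.42 and 2.07 CPM in SERTPyramid and 2.17, 1.74 and 1.97 CPM in control libraries labelled female, and 2.90, 2.79 and 2.59 CPM in SERTPyramid and 2.77, 2.39 and 2.82 CPM in control libraries labelled male. Dnaic2 had 3.43, 3.13 and 2.03 CPM in SERTPyramid and 2.87, 3.49 and 2.85 CPM in control libraries labelled female, and 4.19, 3.10 and 2.84 CPM in SERTPyramid and 3.89, 3.33 and 2.86 CPM in control libraries labelled male. The genotypes overlapped for both chains in each labelled sex, and their r with Foxj1 were 0.81 and 0.75.

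Dnaaf proteins fold and assemble dynein arms in the cytoplasm before they reach the cilium. Dnaaf5 had 8.95, 7.98 and 7.91 CPM in SERTPyramid and 9.68, 9.40 and 7.72 CPM in control libraries labelled female, and 11.6, 9.89 and 9.69 CPM in SERTPyramid and 11.5, 8.93 and 9.33 CPM in control libraries labelled male. Dnaaf3 had 4.22, 4.23 and 2.92 CPM in SERTPyramid and 3.6, 3.87 and 3.95 CPM in control libraries labelled female, and 5.64, 4.0 and 5.34 CPM in SERTPyramid and 6.24, 3.84 and 4.68 CPM in control libraries labelled male. Neither separated the genotypes, and both followed Foxj1, with r of 0.68 and 0.79, while Dnaaf2 did not (r = 0.11).

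The nexin-dynein regulatory complex links neighbouring doublets. Drc1 had 16.8, 19.7 and 20.5 CPM in SERTPyramid and 14.1, 17.1 and 15.4 CPM in control libraries labelled female, and 19.3, 16.7 and 16.9 CPM in SERTPyramid and 18.6, 17.3 and 17.5 CPM in control libraries labelled male. Drc3 had 7.46, 7.17 and 6.14 CPM in SERTPyramid and 5.60, 6.68 and 5.48 CPM in control libraries labelled female, and 7.86, 7.70 and 7.32 CPM in SERTPyramid and 8.16, 6.27 and 8.75 CPM in control libraries labelled male. Drc1 was highest in the library where Foxj1 was lowest, SERTPyramid replicate 3 labelled female, and its r with Foxj1 was 0.12, against 0.81 for Drc3 and 0.84 for Drc7.

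Tektins are filamentous proteins inside the doublets. Tekt5 had 9.11, 10.3 and 9.82 CPM in SERTPyramid and 7.99, 8.25 and 7.63 CPM in control libraries labelled female, and 6.28, 8.68 and 7.88 CPM in SERTPyramid and 8.91, 9.48 and 8.79 CPM in control libraries labelled male. Tekt1 had 4.58, 2.99 and 1.95 CPM in SERTPyramid and 2.82, 3.27 and 2.81 CPM in control libraries labelled female, and 5.0, 3.01 and 4.22 CPM in SERTPyramid and 4.16, 3.29 and 3.27 CPM in control libraries labelled male. Tekt5 was thus higher in every SERTPyramid library than in every control among labelled females and lower among labelled males, and Tekt1 overlapped in both. Tekt1 followed Foxj1 (r = 0.74) and Tekt5 did not (r = -0.18).

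Cfap genes make up the largest family and have mixed roles. Cfap36 had 55.9, 62.1 and 56.1 CPM in SERTPyramid and 57.8, 59.0 and 62.0 CPM in control libraries labelled female, and 60.3, 59.9 and 55.2 CPM in SERTPyramid and 59.7, 57.6 and 60.3 CPM in control libraries labelled male. Cfap20, a protein at the inner junction of the doublet, had 37.5, 38.3 and 34.7 CPM in SERTPyramid and 32.2, 36.3 and 37.0 CPM in control libraries labelled female, and 35.2, 32.4 and 36.8 CPM in SERTPyramid and 34.9, 32.8 and 33.1 CPM in control libraries labelled male. These were among the steadiest of the set: the lowest coefficients of variation over the 12 libraries were 3.92% for Cfap36, 6.05% for Cfap20, 6.05% for Cfap298, 7.63% for Cfap97 and 7.80% for Rsph9. The highest belonged to genes with few counts, at 59.3% for Rsph14, 45.2% for Cfap53, 43.8% for Cfap73, 39.2% for Cfap99 and 35.8% for Cfap221. Counting error alone would give 38.0% for Rsph14, at a mean of 6.92 counts per library, and 2.71% for Cfap36, at 1359.6 counts.

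**Figure D2:**
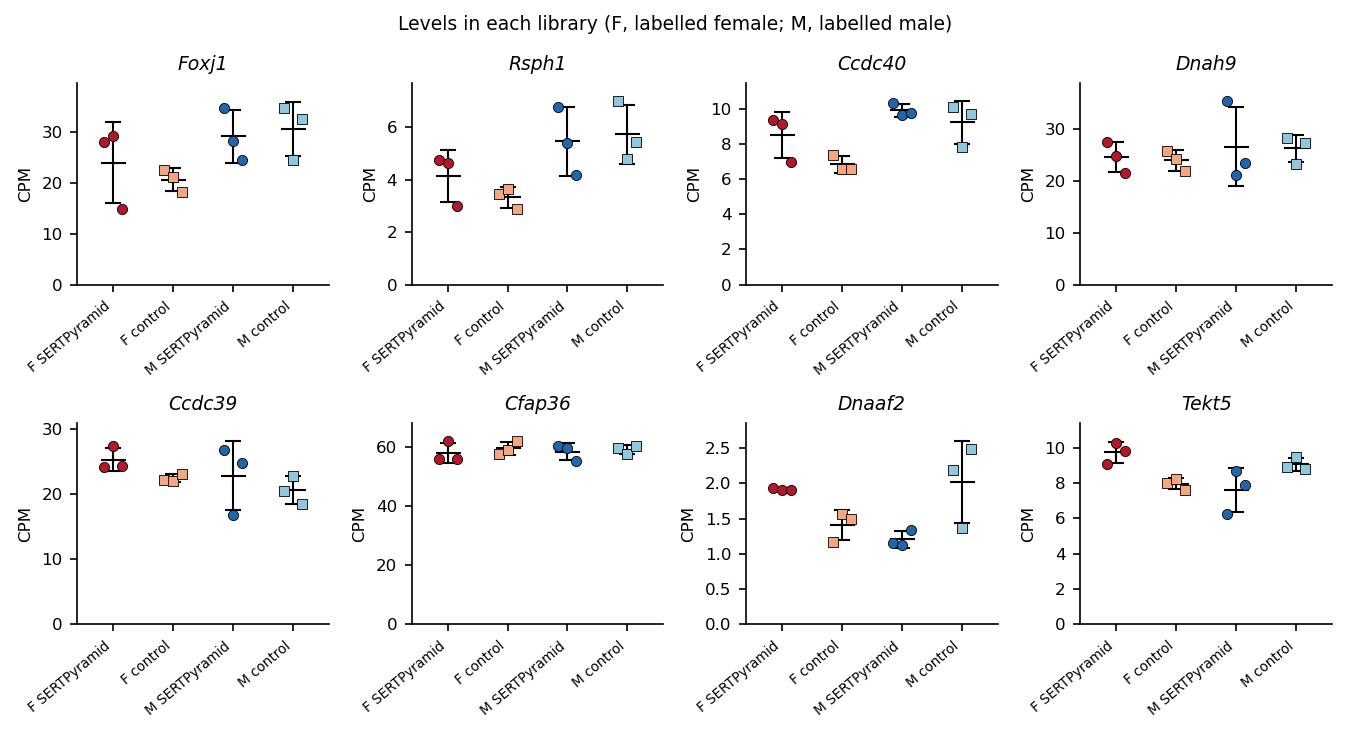
CPM of 8 genes in each of the 12 libraries, with SERTPyramid left of control within each labelled sex; points are libraries, horizontal lines group means and bars 1 SD (n = 3). Foxj1, Rsph1, Ccdc40 and Dnah9 overlap between genotypes in at least 1 labelled sex, Cfap36 stays between 55.2 and 62.1 CPM, and Dnaaf2 and Tekt5 differ in opposite directions in the labelled sexes.

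The motile cilium genes fell into a majority that varied with Foxj1 from library to library and a minority with lower r. Over the 12 libraries, 33 of the 67 genes other than Foxj1 had r of at least 0.7 with it on log2 CPM, a share of 49.3%, against 2.05% of all genes tested, and the median r was 0.69, against -0.02 over all genes tested. A total of 44 genes, Foxj1 included, had r of at least 0.5, and 24 had less. The highest r were 0.95 for Dnah6, 0.94 for Rsph1, 0.93 for Dnah10, 0.93 for Cfap43 and 0.91 for Rsph4a, and Cfap43 is known to tether dyneins to the doublet. The lowest were -0.56 for Rsph3b, -0.23 for Ccdc39, -0.18 for Tekt5, -0.17 for Cfap20 and -0.08 for Rsph3a; Rsph3a and Rsph3b are close copies whose reads may be confused. The median r between pairs of genes was 0.66 among the 44, 0.12 among the 24 and 0.12 between the sets. These r are descriptions over libraries that share scaling and depth, and the split at 0.5 is a convenience: Cfap69 lay just under it and Dnah2, with 0.51, just above. The split was made on these same libraries, so how the sets differ across them is partly fixed by it and is given as a description.

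The covariation was present within groups as well. With each group's mean taken out, over all 12 libraries, the median r with Foxj1 was 0.68. With group means left in, the median was 0.58 without SERTPyramid replicate 3 labelled female and SERTPyramid replicate 1 labelled male. In that setting 20 genes, 29.9%, still had r of at least 0.7, against 1.76% of all genes tested. Those libraries were the extremes: of the 44 genes, 28 had their lowest value in SERTPyramid replicate 3 labelled female and 28 their highest in SERTPyramid replicate 1 labelled male. The 44 genes summed to 162.3 CPM in the first and 341.4 CPM in the second, against 190.4 to 292.9 CPM in the other 10 libraries. The 24 genes summed to 253.9 and 265.5 CPM there, within the 231.4 to 266.6 CPM of the others. For these 24 genes the ependymal name rests on the symbol alone, since their r with Foxj1 was under 0.5. Some lay near the cut, such as Cfap300 with 0.47 and Dnah7c with 0.46. Their spread was also closer to counting error, with a median ratio of 1.53 against 2.36 for the 44 genes. Median counting error was alike, 10.3% for the 24 genes and 11.2% for the 44, and the median coefficient of variation was 15.6% against 28.7%. Where a gene's spread was near counting error, a low r does not show that it varied apart from Foxj1. Ratios among the 24 genes ran from 0.9 to 3.12, the highest being that of Ccdc39.

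**Figure D3:**
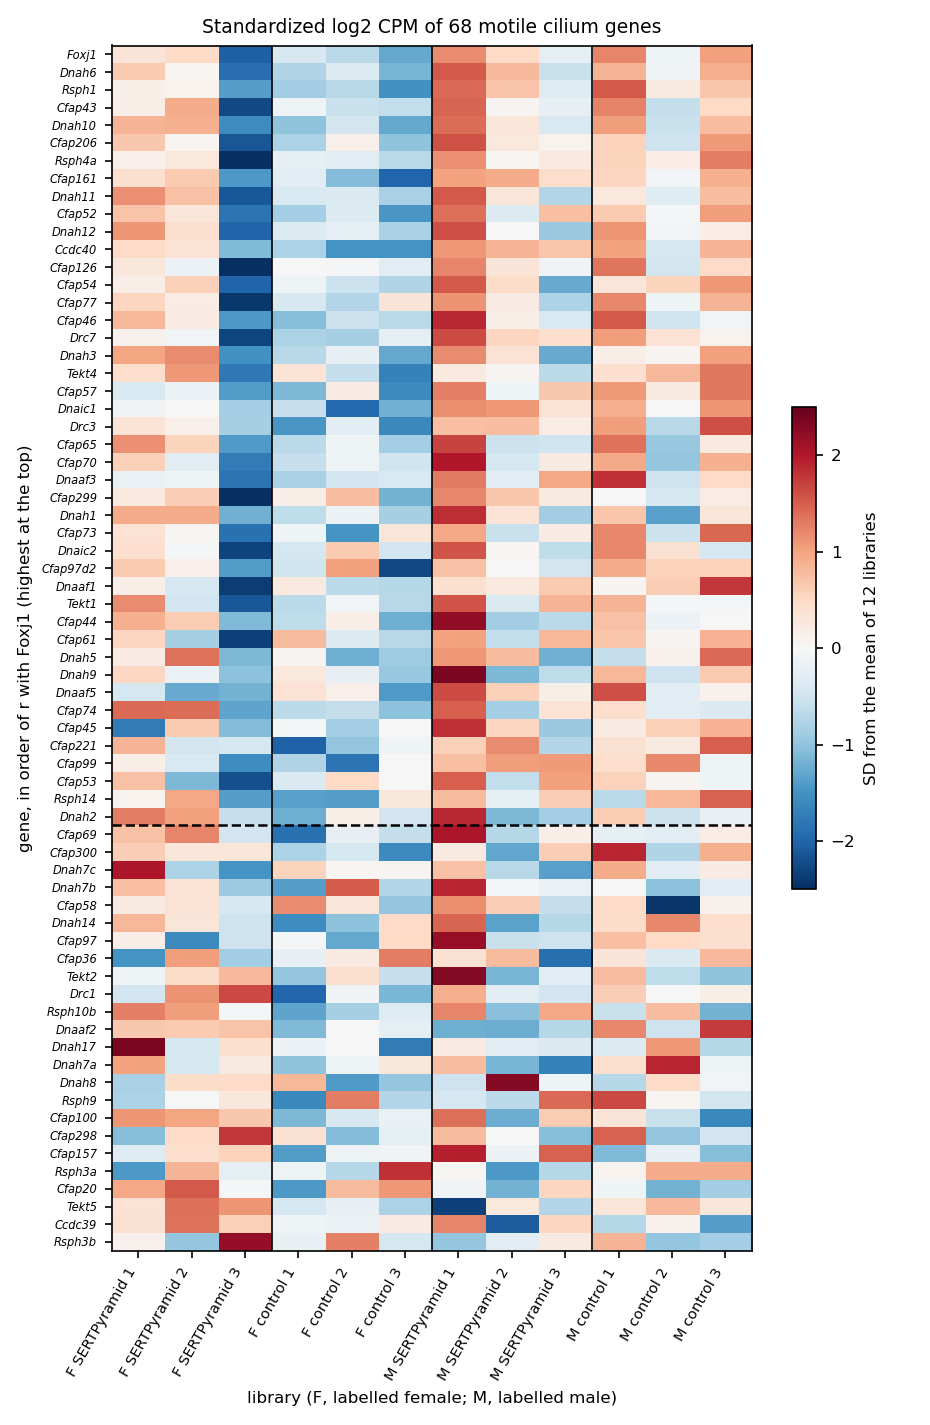
Log2 CPM of the 68 genes that passed the filter (rows, in order of r with Foxj1) in 12 libraries (columns, by group), in SD from each gene's mean; the dashed line divides the 44 genes with r of at least 0.5 from the other 24. Above the line the column of SERTPyramid replicate 3 labelled female is low and that of SERTPyramid replicate 1 labelled male is high, each being the extreme for 28 of 44 genes.

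Markers of the choroid plexus moved with the same libraries. Ttr, the transthyretin that choroid plexus secretes, had 18.4 CPM in SERTPyramid replicate 3 labelled female and reached 2356.3 CPM in the highest library. Summed within each library, the motile cilium genes had r = 0.79 (Spearman 0.63) over 12 libraries with the summed 15 choroid plexus markers. It was r = 0.42 (Spearman 0.36) without SERTPyramid replicate 3 labelled female and SERTPyramid replicate 1 labelled male, so the relation rests mostly on them. For Foxj1 alone r was 0.68 (Spearman 0.54), and 0.31 (Spearman 0.21) without them. The relation of Foxj1 to Rsph1 had r = 0.94 (Spearman 0.94) over 12 libraries. It had r = 0.92 (Spearman 0.89) without SERTPyramid replicate 1 and control replicate 1 labelled male, the libraries highest in Rsph1. SERTPyramid replicate 3 labelled female, the lowest in Foxj1, was kept there, so this leaves the low end unchecked. In SERTPyramid replicate 3 labelled female, where the choroid plexus list was lowest, Foxj1 was at 14.8 CPM and the 44 genes at 162.3 CPM, each also the lowest of the 12 libraries. How much choroid plexus in the dissection contributed to the spread of the cilium genes was not tested.

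**Figure D4:**
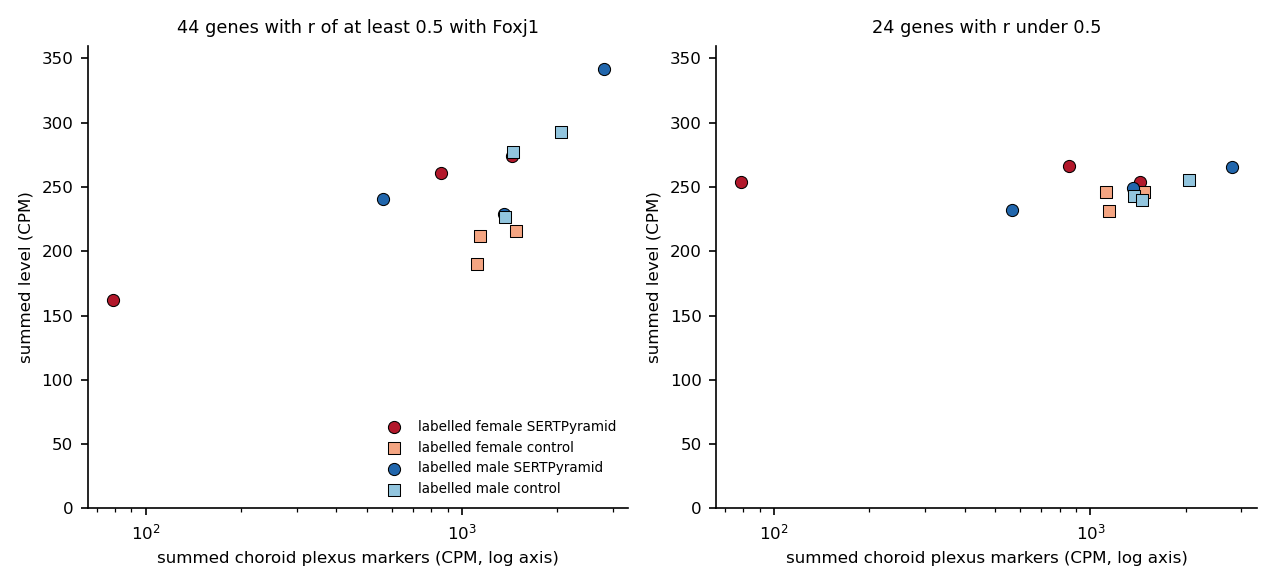
Summed CPM of the 44 genes with r of at least 0.5 with Foxj1 (left) and of the other 24 genes (right) against summed CPM of 15 choroid plexus markers (log axis), 1 point per library, coloured by group. The left panel runs from 162.3 CPM at 78.6 CPM of choroid plexus markers to 341.4 CPM at 2810.1 CPM, and the right panel stays between 231.4 and 266.6 CPM.

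Genes outside the set were compared with Foxj1 by list, over the same libraries. Among 45 other axoneme and dynein assembly genes the median r with Foxj1 was 0.75, with 26 at 0.7 or more, including Ak7 with 0.98, Hydin, a central-pair protein, with 0.91 and Lrrc23, a radial spoke protein, with 0.91. Of 12 ependymal markers 8 had r of at least 0.7, with Ccdc153 at 0.94 and Tm4sf1 at 0.91, while Fam183b had 0.25 and S100b 0.37. Their median was 0.73, and 10 of 12 had at least 0.5. The 15 choroid plexus markers were close to this, with a median of 0.70 and all 15 at 0.5 or more. In contrast, none of 25 genes of intraflagellar transport, which builds primary and motile cilia alike, reached 0.7, and their median was 0.03, from -0.76 for Ift20 to 0.64 for Ift80. Because these counts come from whole tissue, they cannot show how intraflagellar transport genes varied in ependymal cells. The 8 genes of neuronal primary cilia had a median of 0.26. Among 14 regulators of multiciliation the median was 0.41 and Rfx2, a transcription factor of ciliary genes, was the single gene above 0.7, with 0.80; Mcidas and Gmnc, which act upstream in the commitment to many cilia, had 0.52 and 0.38 at means of 0.510 and 1.78 CPM. No gene of these lists passed an adjusted p of 0.05 in any comparison by edgeR.

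Over all genes outside the set, the 15 whose log2 CPM was most like the mean of the 44 cilium genes had r from 0.93 to 0.97 over the 12 libraries. They were Gm19935, Spata18, Ttc21a, Ak7, Prelp, Map3k19, Frmpd2, Ccdc153, C230072F16Rik, Hydin, Ccdc180, Fam216b, Ezr, Crb2 and Lbp. Hydin, Ak7 and Ccdc153 are also on the lists above, and Ezr, the membrane linker ezrin, had a mean of 104.1 CPM and ranged from 90.8 to 115.0 CPM.

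Promoters were read for the question whether the covarying genes share short sequences in front of their start sites. RFX factors bind a motif with mirrored arms, of which a single arm was searched as GTTGCC or GGCAAC on both strands, and forkhead factors such as Foxj1 bind a core searched as GTAAACA or TGTTTAC; neither motif contains the other. RefSeq promoter windows of GRCm38.p6, from 250 bases before to 50 bases after the start, were given for 58 of the 71 genes. An RFX arm was found in 22 of 58, or 37.9%, against 14.1% of 27025 genes with a window and 15.2% of the tested protein-coding genes. The share was 29.4% (10 of 34) among genes with r of at least 0.5 and 57.1% (12 of 21) among those with less, so the arm was not more frequent in the covarying genes. The forkhead core was found in 4 of 58, or 6.90%, against 4.05% of all genes with a window. A match says only that the letters are present. Printed next are the 250 bases before the start of 6 genes, 5′ to 3′ on the gene's own strand, with motif letters in capitals.

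Cfap43 was the only gene with r of at least 0.5 whose window held the forkhead core (GRCm38.p6 chr19:47837362-47837611, minus strand). Dnah10 (chr5:124724835-124725084, plus strand) and Cfap161 (chr7:83794840-83795089, minus strand), with r of 0.93 and 0.90, carry 1 and 3 RFX arms in the printed stretch. Cfap298 (chr16:90934850-90935099, minus strand), which did not follow Foxj1, holds 4. Drc1 (chr5:30281143-30281392, plus strand) and Dnaaf2 (chr12:69198430-69198679, minus strand), with the smallest p of the set in libraries labelled female and in those labelled male, hold 1 each.
Cfap43: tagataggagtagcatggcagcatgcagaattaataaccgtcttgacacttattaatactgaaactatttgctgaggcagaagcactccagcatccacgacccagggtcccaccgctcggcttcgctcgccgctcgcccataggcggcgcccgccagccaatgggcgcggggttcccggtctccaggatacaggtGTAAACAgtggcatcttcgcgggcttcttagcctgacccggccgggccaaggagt
Dnah10: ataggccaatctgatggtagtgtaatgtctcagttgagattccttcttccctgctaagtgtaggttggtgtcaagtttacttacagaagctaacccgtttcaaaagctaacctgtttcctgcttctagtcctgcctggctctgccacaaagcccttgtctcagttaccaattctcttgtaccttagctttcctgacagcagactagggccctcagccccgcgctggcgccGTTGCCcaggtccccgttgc
Cfap161: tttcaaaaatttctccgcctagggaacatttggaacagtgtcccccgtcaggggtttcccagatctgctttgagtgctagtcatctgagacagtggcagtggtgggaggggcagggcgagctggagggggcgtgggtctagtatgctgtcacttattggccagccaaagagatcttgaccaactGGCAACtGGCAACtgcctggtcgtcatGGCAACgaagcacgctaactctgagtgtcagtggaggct
Cfap298: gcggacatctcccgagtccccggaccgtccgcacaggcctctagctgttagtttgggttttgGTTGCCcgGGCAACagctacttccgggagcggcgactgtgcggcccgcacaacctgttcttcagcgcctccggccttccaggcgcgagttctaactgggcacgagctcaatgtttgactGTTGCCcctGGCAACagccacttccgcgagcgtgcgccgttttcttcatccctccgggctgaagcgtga
Drc1: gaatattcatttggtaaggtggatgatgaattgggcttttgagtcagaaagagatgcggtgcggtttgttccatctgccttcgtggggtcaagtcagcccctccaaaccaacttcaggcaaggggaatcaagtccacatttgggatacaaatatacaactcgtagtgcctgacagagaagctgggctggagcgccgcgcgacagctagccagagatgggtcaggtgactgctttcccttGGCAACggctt
Dnaaf2: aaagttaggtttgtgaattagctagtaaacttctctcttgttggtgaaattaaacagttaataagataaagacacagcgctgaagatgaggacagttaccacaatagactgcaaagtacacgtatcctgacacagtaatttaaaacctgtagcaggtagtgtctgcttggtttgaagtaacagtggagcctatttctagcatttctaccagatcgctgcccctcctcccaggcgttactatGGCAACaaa

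Between genotypes, most of the motile cilium genes lay slightly above control in SERTPyramid libraries labelled female, and none passed the test across all genes. Of 68 genes, 52, or 76.5%, had a log2 fold change above 0, with a median of 0.15, against 49.9% of all 17631 genes tested and a median of -0.0004. No gene of the set had an adjusted p under 0.05 in edgeR's quasi-likelihood test, as was true of all genes (0%), and the smallest adjusted p of the set was 0.541. At an unadjusted p under 0.05 there were 5 cilium genes, or 7.35%, beside 8.04% of all genes. The summed 71 genes averaged 491.0 ± 64.6 CPM in SERTPyramid and 447.4 ± 13.1 CPM in control libraries (SD, n = 3 each). The median was 0.30 without SERTPyramid replicate 3 and 0.05 without SERTPyramid replicate 1, so single libraries set its size. The 15 choroid plexus markers did not share this direction: none had a log2 fold change above 0, and their median was -0.48. Their SE ran from 0.29 for Prlr to 1.08 for Ttr, and none had an unadjusted p under 0.05 by edgeR. Their sums were 78.6 to 1437.3 CPM in SERTPyramid and 1117.9 to 1480.2 CPM in control libraries. Their part in the cilium genes' values was not tested.

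The smallest p among labelled females was that of Drc1, whose values are given above: it averaged 19 ± 1.94 CPM in SERTPyramid and 15.5 ± 1.54 CPM in control libraries (SD, n = 3 each), a log2 fold change of 0.28 ± 0.09 (SE), at an edgeR adjusted p of 0.541. Cfap100, known in green algae as a regulator of inner-arm dyneins, had 5.88, 5.70 and 5.25 CPM in SERTPyramid and 3.56, 4.17 and 4.39 CPM in control libraries. Rsph10b had 5.29, 5.03 and 3.98 CPM in SERTPyramid and 3.08, 3.40 and 3.77 CPM in control libraries. Both differed by 0.46 ± 0.18 on the log2 scale (SE; edgeR adjusted p = 0.568), and their groups did not overlap. In all, 6 cilium genes were higher in every SERTPyramid library than in every control, Ccdc39, Cfap100, Cfap300, Dnaaf2, Rsph10b and Tekt5, a share of 8.82% beside 11.8% of all genes, and none was lower in every library, beside 6.99% of all genes.

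Among labelled males the set was spread evenly around 0. The median log2 fold change was 0.02, beside 0.0016 over all genes, and 36 of 68 genes, or 52.9%, were above 0, beside 50.5% of all genes. No gene passed an adjusted p of 0.05 by edgeR, in the set or among all genes (0%), and 2 had an unadjusted p under 0.05, 2.94% beside 3.16% of all genes. The summed genes averaged 520.1 ± 75.8 CPM in SERTPyramid and 512.3 ± 39.6 CPM in control libraries (SD, n = 3 each). Without SERTPyramid replicate 1, the library with the most choroid plexus transcripts, the median was -0.14 and 16 of 69 genes were above 0. Of the 15 choroid plexus markers 7 were above 0 with all libraries, with a median log2 fold change of -0.04, and their sums were 563.2 to 2810.1 CPM in SERTPyramid and 1368.4 to 2051.3 CPM in control libraries.

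Dnaaf2 had the smallest p among labelled males, with 1.15, 1.12 and 1.34 CPM in SERTPyramid and 2.19, 1.37 and 2.49 CPM in control libraries. Among labelled females it had 1.93, 1.90 and 1.90 CPM in SERTPyramid and 1.17, 1.57 and 1.49 CPM in control libraries. The groups did not overlap in either labelled sex, and the directions were opposite. The log2 fold change was -0.75 ± 0.23 (SE; edgeR adjusted p = 0.999) among labelled males and 0.42 ± 0.22 (SE; edgeR adjusted p = 0.672) among labelled females, on 452 counts in all 12 libraries. Exons of Dnaaf2 share 32.7% of their bases with the noncoding gene 9330151L19Rik on the other strand, which had 2746 counts; over the 12 libraries the r between them was 0.18. Tekt5 followed with -0.26 ± 0.11 (SE; edgeR adjusted p = 0.999) among labelled males. Cfap157 had 2.31, 1.72 and 2.20 CPM in SERTPyramid and 1.55, 1.72 and 1.53 CPM in control libraries labelled male, against 1.74, 1.90 and 1.90 CPM in SERTPyramid and 1.48, 1.74 and 1.75 CPM in control libraries labelled female, with a log2 fold change of 0.35 ± 0.18 (SE; edgeR adjusted p = 0.999) among labelled males. Groups of labelled males did not overlap in 4 cilium genes: Cfap299 was higher in SERTPyramid, 1.47% beside 4.09% of all genes, and Dnaaf2, Tekt4 and Tekt5 were lower, 4.41% beside 2.66% of all genes.

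The difference between the labelled sexes in the effect of genotype was tested as an interaction. No cilium gene passed an adjusted p of 0.05 by edgeR, again beside 0% of all genes, and 3 had an unadjusted p under 0.05, 4.41% beside 4.45% of all genes. These were Dnaaf2, with an interaction of 1.16 ± 0.32 on the log2 scale (labelled female minus labelled male, SE), Tekt5, with 0.54 ± 0.16, and Drc1, with 0.30 ± 0.13, all at an adjusted p of 0.999 by edgeR. The median interaction over 68 genes was 0.16, beside 0.0029 over all genes, with 48 above 0. It was 0.42 without SERTPyramid replicate 3 labelled female and SERTPyramid replicate 1 labelled male, and 0.05 without SERTPyramid replicate 1 labelled female. None of the 15 choroid plexus markers had an interaction above 0, and their median was -0.51. Their SE ran from 0.41 for Prlr to 1.52 for Ttr, and none had an unadjusted p under 0.05 by edgeR. All 15 were highest in SERTPyramid replicate 1 labelled male, so they did not vary independently. Their median was not computed with libraries left out.

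Averaged over the labelled sexes, 47 of 68 genes lay above 0 with a median log2 fold change of 0.10, beside -0.0012 over all genes. None of the 15 choroid plexus markers was above 0 and their median was -0.24, but none of them had an unadjusted p under 0.05 by edgeR. No gene passed an adjusted p of 0.05 by edgeR, in the set or among all genes (0%), and 3 cilium genes had an unadjusted p under 0.05, 4.41% beside 6.49% of all genes. Cfap100 had a log2 fold change of 0.38 ± 0.13, Rsph10b of 0.33 ± 0.13 and Ccdc40 of 0.19 ± 0.08 (SE; edgeR adjusted p = 0.756 each). Among labelled males Cfap100 had 6.19, 3.44 and 5.34 CPM in SERTPyramid and 4.91, 4.04 and 3.19 CPM in control libraries, and Rsph10b 5.21, 3.22 and 5.0 CPM in SERTPyramid and 3.63, 4.70 and 3.15 CPM in control libraries. SERTPyramid replicate 2 was thus the low library of its group for both, as it was for Ccdc39. Without it Cfap100 passed (adjusted p = 0.0443 by edgeR), in a fit that called 144 of 18008 genes, 0.8%, and 1 of 69 cilium genes, 1.45%.

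**Figure D5:**
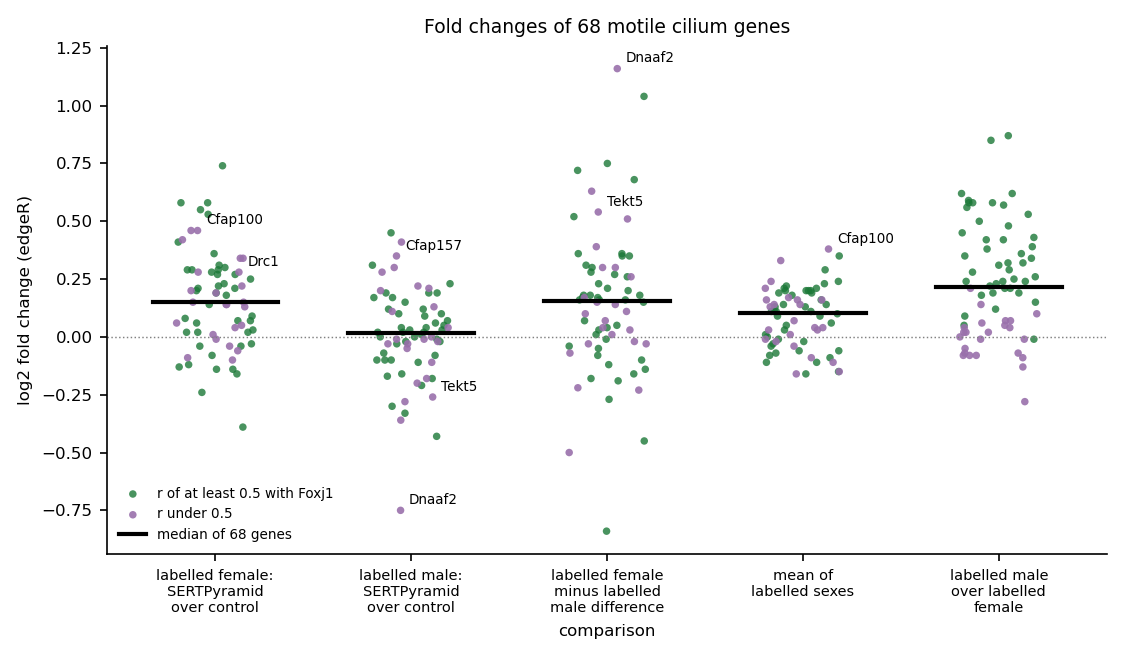
Log2 fold changes by edgeR of 68 motile cilium genes in 5 comparisons (points, spread sideways at random; black lines are medians of 0.15, 0.02, 0.16, 0.10 and 0.22 in the order plotted). Genes with r of at least 0.5 with Foxj1 and the other genes are coloured apart, and no point passed an adjusted p of 0.05.

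Libraries labelled male were also compared with those labelled female over both genotypes. In this comparison 56 of 68 genes, or 82.4%, had a log2 fold change above 0, with a median of 0.22, against 48.7% of all genes tested and a median of -0.0024. An unadjusted p under 0.05 was reached by 15 genes, all higher in labelled males, which is 22.1% of the set beside 9.01% of all genes. None passed an adjusted p of 0.05 by edgeR, as for all genes (0%). All 15 were among the 44 genes with r of at least 0.5 with Foxj1, which vary together and are not independent. Of those 44, 43 were above 0 with a median of 0.33, against 13 of the other 24 with a median of 0.01. Rsph1 had the smallest p, with a log2 fold change of 0.58 ± 0.14 (SE; edgeR adjusted p = 0.291), followed by Cfap57, known in algae as an inner-arm dynein factor, with 0.62 ± 0.16, Ccdc40 with 0.32 ± 0.08, Cfap99 with 0.87 ± 0.25 and Drc7 with 0.62 ± 0.18 (SE; edgeR adjusted p from 0.295 to 0.395). Foxj1 had 0.42 ± 0.18 (SE; edgeR adjusted p = 0.544).

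All 15 choroid plexus markers lay above 0 as well, with a median log2 fold change of 0.63 between the labelled sexes, and their part in the shift was not tested. Without SERTPyramid replicate 3 labelled female and SERTPyramid replicate 1 labelled male the median over the cilium genes was 0.06, with 41 of 69 above 0; without control replicate 1 of both labelled sexes it was 0.21. Since sex-chromosome transcripts contradict the label of 10 libraries, the direction holds for the labels only. With all genes kept whatever their counts, edgeR called 194 of 34328 genes here, 0.565%, among them 5 of the 71 cilium genes, 7.04%, which were Ccdc40, Cfap52, Cfap57, Drc7 and Rsph1.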

How the data were processed

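Per the labels' protocols, Trizol-extracted RNA (250 ng a library) went into TruSeq v2 libraries, a kit without strand marking. The deposited table holds raw read counts per Ensembl gene; the build is mm10, per the submitters' processing notes, with aligner, counting settings and annotation not given in the sources used here. Coordinates, exon lengths and biotypes came from GENCODE M21 (GRCm38), matched by gene identifier for 52487 of 52634 genes, and 0 columns were left unmapped.

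Single-library CPM values use library totals. Genes kept by filterByExpr, 17631 in all, were scaled by TMM and tested with edgeR 4.0.16 (R 4.3.3, quasi-likelihood, robust), all 12 libraries in 4 groups, with Benjamini-Hochberg adjustment over all genes at 0.05. SE was derived from the fold change and the F statistic. Correlations used log2 CPM (prior count 2) and carry no p. The fit was tested on simulated data first. The members and all gene lists were chosen with earlier results of these data known.

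Values in every library were given for Foxj1, Rsph1, Ccdc39, Ccdc40, the 2 most abundant genes of each family, and the 3 with the smallest p in each genotype contrast; extremes of r and variation were named by the 5 highest and 5 lowest. Genes named from the labelled-sex contrast and promoters printed were chosen after their values were seen. Alternatives were DESeq2 1.42.0, RLE scaling, limma voom (limma 3.58.1), 2 other filters, a fit of the compared groups alone, a replicate block, a threshold of 0.1, and leaving out libraries. Same-numbered libraries of different groups deviated with r from -0.225 to 0.234, so the numbers were not taken as pairs. Within groups, chi-square over degrees of freedom between libraries was at least 2.47, so none agreed within sampling noise.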

Additional observations from a re-analysis of the deposited data

Results flagged for a closer look

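Dnaaf2, a dynein assembly factor, and Tekt5, a tektin, differed in opposite directions in the labelled sexes without overlap between genotypes in either: every SERTPyramid library lay above every control among labelled females and below every control among labelled males. The interaction on the log2 scale was 1.16 for Dnaaf2 and 0.54 for Tekt5 (labelled female minus labelled male, adjusted p = 0.999 each by edgeR). Over the alternatives the adjusted p ranged from 0.26 to 1.0 for Dnaaf2 and from 0.33 to 1.0 for Tekt5. These were 2 of 68 cilium genes, 2.94%, and 78 of all genes tested, 0.442%, did the same in either direction. Over the alternatives the interaction ranged from 0.96 to 1.39 for Dnaaf2 and from 0.40 to 0.66 for Tekt5. No cause was tested.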

How the results depend on the processing

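Of 642 values of 33 results under the alternatives, 621 kept their direction and their side of the threshold or stayed within the spread between replicates. No cilium gene was called among labelled females, among labelled males or for the interaction under any alternative run. For the labelled-sex comparison edgeR without a low-count filter called 5 of 71, 7.04% beside 0.565% of all genes in that fit, and for the mean of the labelled sexes the count over left-out libraries ran from 0 to 1; the cause was not tested. Over single left-out libraries the Foxj1 difference ran from -4.55 to 0.839 CPM among labelled males and from -0.611 to 3.20 CPM over both labelled sexes, and its log2 fold change from -0.22 to 0.04 and from -0.02 to 0.18, while that of Rsph1 among labelled males ran from -0.25 to 0.10. Without control replicate 1 of both labelled sexes, the labelled-male log2 fold changes were 0.01 for Foxj1 and 0.08 for Rsph1. Medians over the cilium genes ran from 0.05 to 0.30 among labelled females, from -0.14 to 0.10 among labelled males, from 0.05 to 0.42 for the interaction, from 0.02 to 0.16 for the mean and from 0.06 to 0.28 for labelled sex. Leaving out SERTPyramid replicate 3 labelled female and SERTPyramid replicate 1 labelled male together, chosen after seeing the data, gave an interaction median of 0.42 and r = 0.42 between summed cilium genes and choroid plexus markers, which over single left-out libraries reached 0.87. With a replicate block the medians were 0.15 among labelled females and -0.0 among labelled males and 0 cilium genes were called; libraries share only a number, so the block is not a pairing. Depth limits the rarest genes most: Rsph14 had 2 to 15 counts per library.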
